A study of Mus musculus with 10 samples.

Results

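The mitochondrial ribosome genes are the mouse protein-coding genes whose symbols begin with Mrpl (large subunit) or Mrps (small subunit) followed by a number. The rule gave 78 genes of 21774 protein-coding genes, 49 for the large and 29 for the small subunit, with 47 on the plus and 31 on the minus strand. They were looked up in 2 lists of transcription start sites (TSSs) enriched for ARID2, the DNA-binding subunit that sets the PBAF chromatin remodelling complex apart from BAF. The lists came from CUT&RUN, in which a nuclease tethered to an antibody releases DNA around the bound protein. Spermatogenic cells were isolated from the testes of CD1 mice whose spermatogenesis had been synchronized with an inhibitor of retinoic acid synthesis, given from P1 to P10, followed by retinoic acid at P11. Collection was 17 days (P28) or 17.5 days (P28.5) past the dose of retinoic acid, when tubules are enriched for pachytene, diplotene and metaphase spermatocytes. Each age had 2 libraries for ARID2, 2 for the PBAF and BAF ATPase BRG1 and 1 without primary antibody as control, 10 libraries in all, and no group carried a deletion. The BRG1 libraries were not analysed here.

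Each list names the TSSs that the authors assigned to their ARID2-enriched cluster, as a chromosome, a position and a gene symbol. The list of P28 held 11553 rows and 4095 symbols, and the list of P28.5 held 8514 rows and 2707 symbols. A row carries no signal, no strand and no read count, so the depth behind a listed TSS is unknown. Per the paper's reporting summary, a smaller share of the enriched TSSs overlapped regions called as ARID2 peaks at P28.5 than at P28. There is 1 list for each age and none for a single library, so the lists give neither a spread over libraries nor a test of the difference between ages, and signal tracks of the single libraries were not analysed here. The cell types in the preparation could not be checked against marker genes in a list of this kind. Shares below are given with their 95% Wilson interval, which covers counting error only, since genes are not replicates of the experiment.

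The mitochondrial ribosome translates the few messenger RNAs encoded by mitochondrial DNA, all of which specify subunits of the oxidative phosphorylation complexes. Its RNAs come from the mitochondrial genome, whereas all of its proteins are encoded in the nucleus and imported, so that the organelle depends on the nuclear genes considered here. Some of these proteins descend from bacterial ribosomal proteins and others have no bacterial counterpart, and in the testis spermatocytes pass through a phase of high mitochondrial respiration late in meiotic prophase.

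At P28, 22 of 78 mitochondrial ribosome genes were listed by name, a share of 28.2% (19.4% to 39.0%), beside 16.8% of all protein-coding genes. At P28.5, 17 of 78 were listed, a share of 21.8% (14.1% to 32.2%), beside 11.6% of protein-coding genes. The list of both ages shared 14 of the genes (17.9%), beside 8.48% of protein-coding genes. These 14 genes made up 63.6% of those listed at P28 and 82.4% of those listed at P28.5, where the corresponding shares of all listed protein-coding genes were 50.5% and 73.1%. Named at both ages were Mrpl2, Mrpl20, Mrpl37, Mrpl41, Mrpl45, Mrpl51, Mrpl54 and Mrpl57 of the large subunit and Mrps6, Mrps7, Mrps9, Mrps14, Mrps18b and Mrps27 of the small subunit.

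The subunits were listed in like proportion. Of the large subunit genes, 14 of 49 were listed at P28 (28.6%, 17.8% to 42.4%) and 10 of 49 at P28.5 (20.4%, 11.5% to 33.6%). Of the small subunit genes, 8 of 29 were listed at P28 (27.6%, 14.7% to 45.7%) and 7 of 29 at P28.5 (24.1%, 12.2% to 42.1%). Each subunit's share lay inside the interval of the other at both ages, and the order of the subunits was opposite at P28 and P28.5. Proteins with a bacterial homologue and proteins without one were listed in 12 of 46 and 10 of 32 cases at P28, and in 10 of 46 and 7 of 32 cases at P28.5.

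A row under a gene's name did not always lie at that gene. The lower-coordinate end of a transcript is the 5′ end of a plus-strand gene and the 3′ end of a minus-strand gene. Of the 7144 distinct positions in the list of P28, 3956 (55.4%) equalled a lower-coordinate end in the annotation used here and 6 an upper-coordinate end, and 3185 equalled no transcript end. In the list of P28.5 these were 2742 (52.8%), 5 and 2448 of 5193. Positions equal to the 3′ end of a minus-strand gene numbered 736 (10.3%) at P28 and 73 (1.41%) at P28.5. Shares by name at P28 thus hold more rows at 3′ ends than those at P28.5. Among protein-coding genes, 26.0% of those on the plus strand and 7.61% of those on the minus strand had a row by name in the list of P28. In that of P28.5 the shares were 20.4% and 2.86%. The members followed the same order, with 17 of 47 plus-strand and 5 of 31 minus-strand genes at P28, and 13 of 47 and 4 of 31 at P28.5. Of the 30 positions listed for plus-strand members at P28, 28 were within 100 bp of an annotated 5′ end of the gene and 16 equalled one. For minus-strand members none of the 9 positions listed under their names at either age equalled an own 5′ end.

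**Figure D1:**
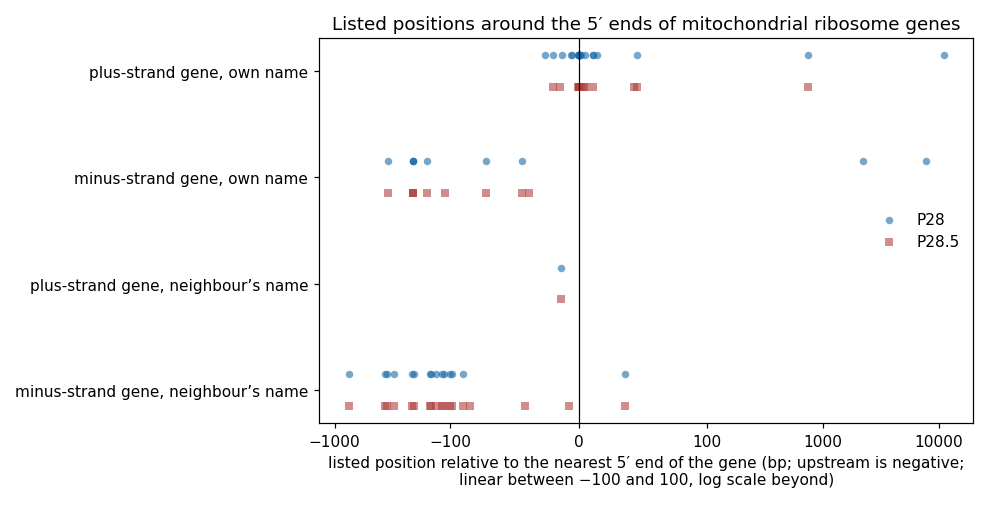
Distance of each listed position (horizontal axis, bp, upstream negative, linear in the 100 bp on each side and logarithmic beyond) from the nearest annotated 5′ end of the mitochondrial ribosome gene, by strand and by whether the row carries the gene's own name or a neighbour's. Circles are P28 and squares P28.5. Positions of plus-strand genes cluster at 0, apart from those of Mrpl20 (740 bp) and Mrps18a (11034 bp). Those of minus-strand genes lie upstream, except 2 at P28 that are the 3′ ends of Mrpl54 and Mrpl46 (2204 and 7748 bp downstream) and the one named Rab6a near Mrpl48 (36 bp).

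Each gene was therefore also counted when any listed position, whatever its name, lay within 2000 bp of one of its annotated 5′ ends. By this measure 26 of 78 members (33.3%, 23.9% to 44.4%) were listed at P28 and 26 of 78 at P28.5, beside 17.3% and 14.8% of protein-coding genes. They were not the same 26 genes. A set of 20 was shared by both ages (25.6%, beside 10.9% of protein-coding genes), 6 (7.69%) belonged to the earlier age alone and 6 to the later age alone, beside 6.37% and 3.86% of protein-coding genes. The shared genes were 76.9% of the members listed at each age, and of the protein-coding genes listed at P28 and P28.5 they were 63.1% and 73.9%. The large subunit contributed 18 of 49 genes at P28 and 17 of 49 at P28.5, and the small subunit 8 of 29 and 9 of 29.

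**Figure D2:**
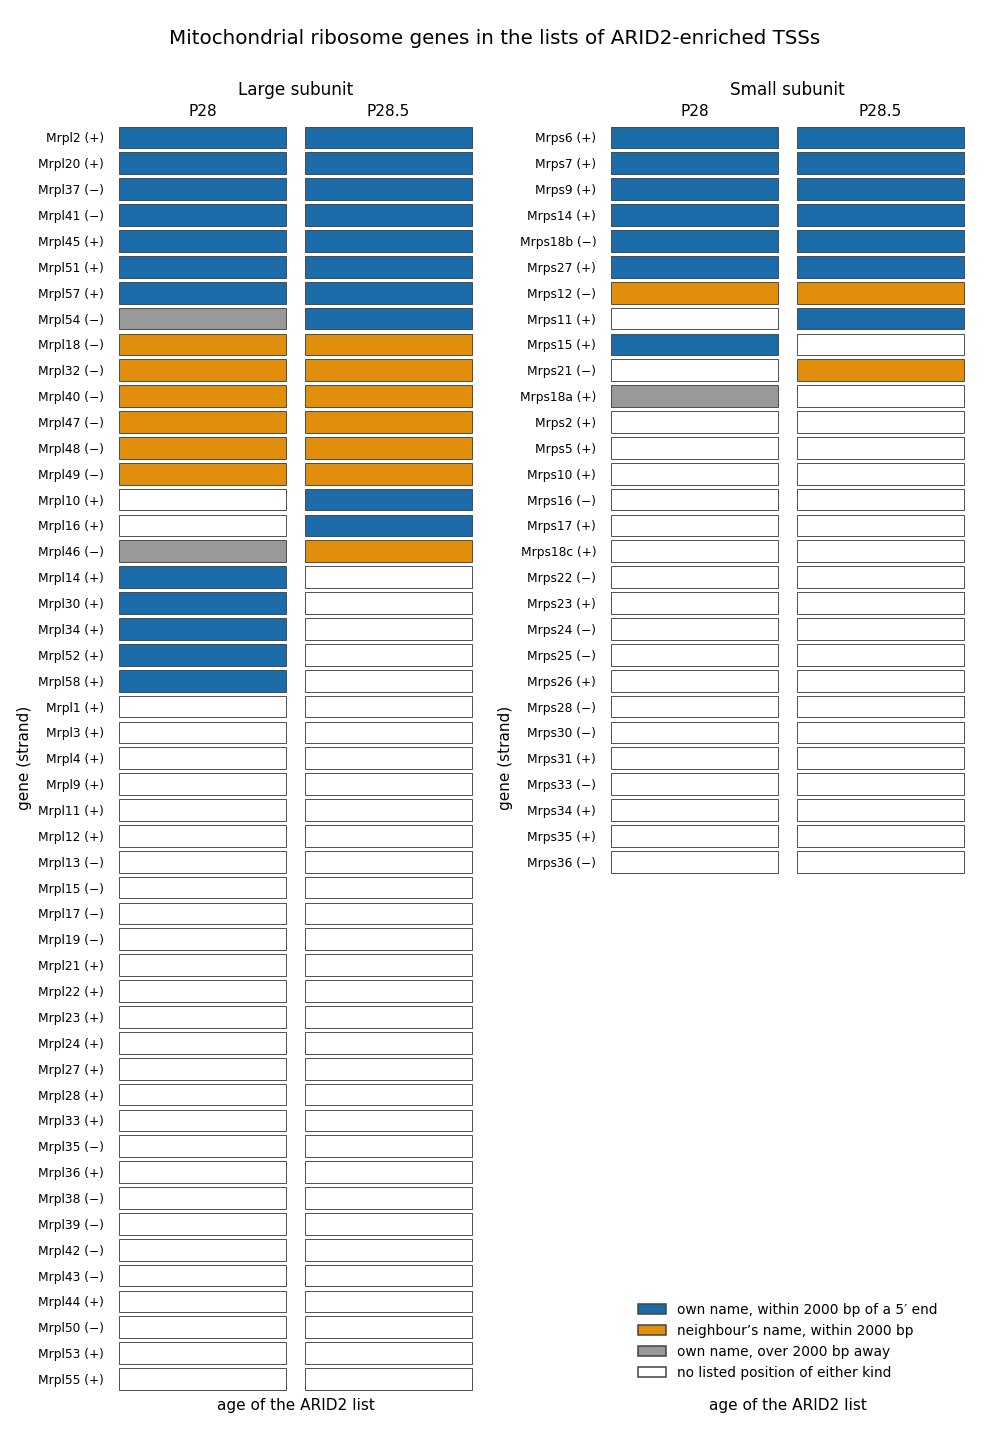
Every mitochondrial ribosome gene (rows, with its strand) at P28 and P28.5 (columns), for the large subunit on the left and the small subunit on the right. Blue marks a row with the gene's own name within 2000 bp of one of its 5′ ends, whatever other names lie there. Orange marks positions within 2000 bp under a neighbour's name alone, grey a row with the gene's name farther away, and white neither. Orange boxes occur on minus-strand genes, 7 at P28 and 9 at P28.5, and 45 genes are white at both ages.

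The large subunit genes with a row exactly on an annotated 5′ end of their own at both ages lie on the plus strand. Mrpl2 encodes a homologue of bacterial L2, which sits next to the peptidyl transferase centre. It spans chr17 from 46646172 on the plus strand and had 4 rows at each age, at 46646172, 46646201, 46646221 and 46646229, of which 3 equal an annotated 5′ end and 1 is 20 bp upstream of the nearest. Mrpl45, whose protein helps to hold the ribosome at the inner membrane, had 2 rows at each age, at chr11 positions 97315716 and 97315721. The first of these equals the more downstream of its 2 annotated 5′ ends and the other is 5 bp further on, and no row lay at the upstream 5′ end at 97314923. Mrpl57 (chr14, 57826228 and 57826239) had a row at each of its 2 annotated 5′ ends at both ages, and Mrpl51 (chr6, 125192200) had 1 row at its only 5′ end at both ages. Mrpl20, a homologue of bacterial L20 and also on the plus strand, stood apart. It had no row exactly on its 5′ end, and its listed TSSs changed. At P28 it had rows at 155802852 and 155803618 on chr4, 26 bp upstream and 740 bp downstream of its 5′ end, and at P28.5 the downstream row alone.

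Mrpl37 and Mrpl41, both minus-strand genes for proteins without a bacterial counterpart, held the most rows of the set. Mrpl41 (chr2:24972470-24975098) had 13 rows at each age, with 2 at 24975306, 3 at 24975308 and 8 at 24975309, all between 208 and 211 bp upstream of its 5′ end. None of these 3 positions is the end of a transcript in the annotation used here. Mrpl37 (chr4:107055874-107066866) had 12 rows at each age, all at 107066910, which is 44 bp upstream of its 5′ end and inside the first part of Cyb5rl, a gene for a cytochrome b5 reductase-like protein on the plus strand. Cyb5rl itself had 7 rows at each age. Rows of Mrpl37 and Mrpl41 made up 25 of the 61 member rows at P28 and 25 of the 56 at P28.5. A row is an entry of the authors' TSS table and not a measurement, so these numbers do not stand for more signal. What each repeated row stands for is not given.

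Mrpl54, another minus-strand gene, was named at both ages but at different places. Its row at P28 was at 81264722 on chr10, which is its own 3′ end, 2204 bp downstream of its 5′ end. At P28.5 it had 1 row at 81266965 and 2 at 81267038, which lie 39 and 112 bp upstream of its 5′ end, and the first is an annotated 5′ end of Apba3, an adaptor protein gene on the other strand. Mrpl54 therefore had a listed TSS at its promoter at P28.5 alone.

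Small subunit genes listed at both ages showed the same contrast between strands. Mrps27 (chr13), which encodes a pentatricopeptide repeat protein, had 4 rows at each age, at 99344767, 99344786 and, with 2 rows, 99344788. The first 2 positions are its annotated 5′ ends and the last is 2 bp from one. Mrps9 (chr1, 42851233 and 42851238) had both rows on annotated 5′ ends, and Mrps14 (chr1) had rows at 160195260 and 160195331, 45 and 1 bp from the nearest. Both encode homologues of proteins in the head of the bacterial small subunit. Mrps6 and Mrps7 had 1 row each at 0 and 11 bp from their 5′ ends, and 14 bp upstream of Mrps6 a further row carried the name of Slc5a3, a myo-inositol transporter gene on the same strand. Mrps18b, on the minus strand and a member of a trio of paralogs with Mrps18a and Mrps18c, had rows at 35916512, 35916598 and 35916787 on chr17, between 72 and 347 bp upstream of its 5′ end. The first and the last of these are annotated 5′ ends of Ppp1r10, which encodes a targeting subunit of protein phosphatase 1 on the plus strand. Of the 14 genes named at both ages, 12 had identical positions in both lists, and Mrpl20 and Mrpl54 did not.

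In the earlier list alone 8 members were named (10.3%) and in the later list alone 3 (3.85%), close to the 8.33% and 3.13% of all protein-coding genes. These shares include genes whose rows lay away from a 5′ end. Of the 3661 protein-coding genes named at P28, 2982 had a row of their name within 2000 bp of one. Mrpl14, Mrpl30, Mrpl34, Mrpl46, Mrpl52, Mrpl58, Mrps15 and Mrps18a were those of P28, and Mrpl10, Mrpl16 and Mrps11 those of P28.5. Mrpl34, Mrpl52 and Mrps15 had a single row on their 5′ end, Mrpl14 had a row 11 bp from one of its 5′ ends, and Mrpl30 had 3 rows at 0, 5 and 6 bp. Mrpl58, which encodes a peptidyl-tRNA hydrolase built into the large subunit that can release stalled chains, had rows 13 bp upstream and 14 bp downstream of a 5′ end. The rows of Mrpl46 and Mrps18a at P28 were not at a promoter of these genes, since that of Mrpl46 equalled its own 3′ end, 7748 bp away, and that of Mrps18a lay 11034 bp from its 5′ end, on the 3′ end of Rsph9, a gene for a radial spoke protein. At P28.5, Mrpl16 and Mrps11 had a row on their 5′ end and Mrpl10, whose homologue anchors the ribosomal stalk, had rows 15 bp upstream and 4 bp downstream of its 5′ end. Whether these genes differ in ARID2 signal between the ages was not tested, since the lists do not tell a TSS just outside the cluster from one far from it.

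Promoters shared with a neighbour were frequent among the mitochondrial ribosome genes. A head-to-head neighbour was defined as a gene on the other strand, transcribed away, with a 5′ end within 1000 bp. Of the 78 members 36 had one (46.2%, 35.5% to 57.1%), beside 20.2% of protein-coding genes and 27.5% of 80 cytosolic ribosomal protein genes. The share was 25 of 49 for the large and 11 of 29 for the small subunit. In 31 of the 36 the 5′ ends were apart, by 6 to 892 bp with a median of 89 bp, and in 5 the first parts of both genes overlapped. Mrpl46 and Mrps11 are neighbours of each other and count in both subunits.

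Members with such a neighbour were listed in a larger share than members without, as were protein-coding genes. By position, 18 of 36 members with a head-to-head neighbour were listed at P28 (50.0%, 34.5% to 65.5%), beside 41.4% of protein-coding genes with one, and 8 of 42 members without (19.0%, 9.98% to 33.3%), beside 11.1%. At P28.5 these were 20 of 36 (55.6%, 39.6% to 70.5%), beside 40.0%, and 6 of 42 (14.3%, 6.72% to 27.8%), beside 8.34%. By name the members with a neighbour numbered 13 of 36 at P28 and 11 of 36 at P28.5, beside 29.2% and 25.0% of protein-coding genes with one. On the plus strand 8 of the 20 members with a neighbour were listed by position at P28 (40.0%, 21.9% to 61.3%) and 7 of 20 at P28.5 (35.0%, 18.1% to 56.7%), below the 43.7% and 41.8% of plus-strand protein-coding genes with one, though these lay inside the intervals. The plus-strand members without a neighbour numbered 27, with 8 listed at the earlier and 6 at the later age. Minus-strand members gave other values, as 10 of the 16 members with a neighbour were listed at P28 (62.5%, 38.6% to 81.5%) and 13 of 16 at P28.5 (81.2%, 57.0% to 93.4%), and 0 of the 15 without at either age (interval up to 20.4%). In all minus-strand protein-coding genes the shares were 9.58% and 8.62%, and in those with a head-to-head neighbour 39.1% and 38.3%. Protein-coding genes without a neighbour were not counted apart by strand, but the counts of each strand show their part. Of 10903 minus-strand genes, 1045 were listed by position in the earlier list, and 866 of these had a neighbour. The later list held 940, and 848 of these had a neighbour. Most listed minus-strand genes thus had a neighbour, although only 2215 of the 10903 did. The 0 of 15 therefore does not set the members apart. Of 10871 plus-strand genes, 2714 and 2273 were listed, with 959 and 917 of these among the 2193 that had a neighbour. The 8 and 6 of 27 were not tested against the remainder. Among genes with a neighbour the members thus lay above the protein-coding share on the minus strand alone. In the whole lists 6 and 5 positions equalled a 5′ end of a minus-strand gene. With those ends largely left out, a minus-strand gene could be counted by position mainly through a row placed elsewhere, such as at a neighbour. The contrast between minus-strand members with and without a neighbour is therefore no measure of ARID2 at shared promoters. The part of strand in these shares was not tested.

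**Figure D3:**
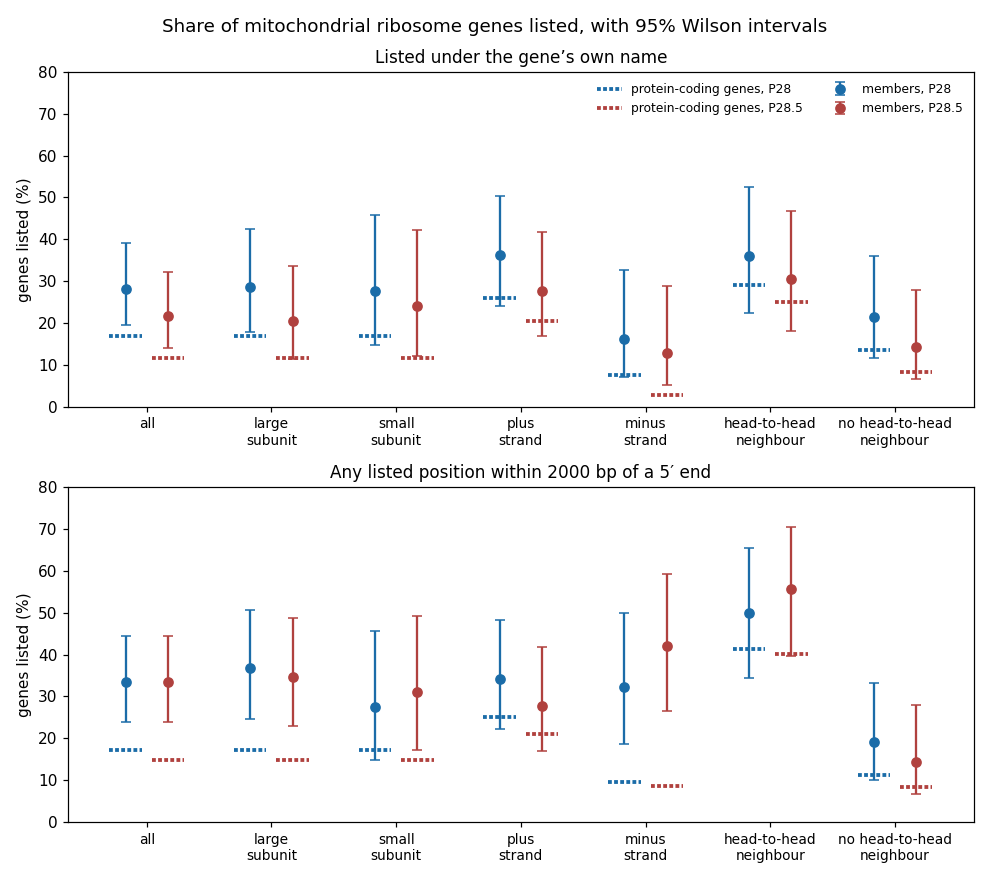
Share of mitochondrial ribosome genes listed (points, percent, with 95% Wilson intervals) under their own name (top) and by any position within 2000 bp of a 5′ end (bottom), for P28 in blue and P28.5 in red. Dotted bars give the share of protein-coding genes of the same strand or neighbour class, and of all protein-coding genes for the whole set and each subunit. Minus-strand members stand at 16.1% by name and 32.3% by position at P28, and their shares at the later age are 12.9% and 41.9%.

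The neighbours gave their names to the rows at several of these promoters. Rows under another name lay near Mrpl37, Mrps18b and the plus-strand Mrps6, which also had rows of their own name there. Within 2000 bp of their 5′ ends, a further 7 members had listed TSSs under another name alone at P28, and 9 at P28.5. All of these were on the minus strand. Present at both ages were Mrpl18 with Tcp1, a subunit of the CCT chaperonin, Mrpl32 with Psma2, an alpha subunit of the proteasome, and Mrpl40 with Hira, a chaperone of histone H3.3. Mrpl47 lay beside Ndufb5 of respiratory complex I, Mrpl48 beside Rab6a, a GTPase of Golgi traffic, and Mrpl49 beside Fau, which encodes a ubiquitin-like protein fused to a cytosolic small subunit ribosomal protein. Mrps12, whose bacterial homologue lies at the decoding site, lay beside Sars2, the mitochondrial seryl-tRNA synthetase. At P28.5 alone Mrps21 had a row 8 bp upstream named for the non-coding C920021L13Rik, and Mrpl46 had rows 42 and 85 bp upstream named for Mrps11.

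Some of these positions were a 5′ end of the neighbour and others were not. The positions under another name near minus-strand members include those near Mrpl37 and Mrps18b. Of all of them, 11 of 15 at P28 and 13 of 18 at P28.5 equalled a 5′ end of another gene. For Mrpl18, Mrpl32, Mrpl48 and Mrps12 the only position within 2000 bp equalled a 5′ end of Tcp1 (99 bp upstream), Psma2 (205 bp), Rab6a (36 bp inside Mrpl48) and Sars2 (147 bp). Hira had a row on its 5′ end, 113 bp from Mrpl40, and another 368 bp away that equalled no 5′ end. Of the rows named Ndufb5, the one 308 bp from Mrpl47 was a 5′ end of Ndufb5 and the one at 352 bp was not. Rows named Fau lay 133 bp (2 rows) and 212 bp from Mrpl49, and neither position is an annotated 5′ end. At distances of this size a TSS list cannot assign the ARID2 signal to either gene of a pair.

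**Figure D4:**
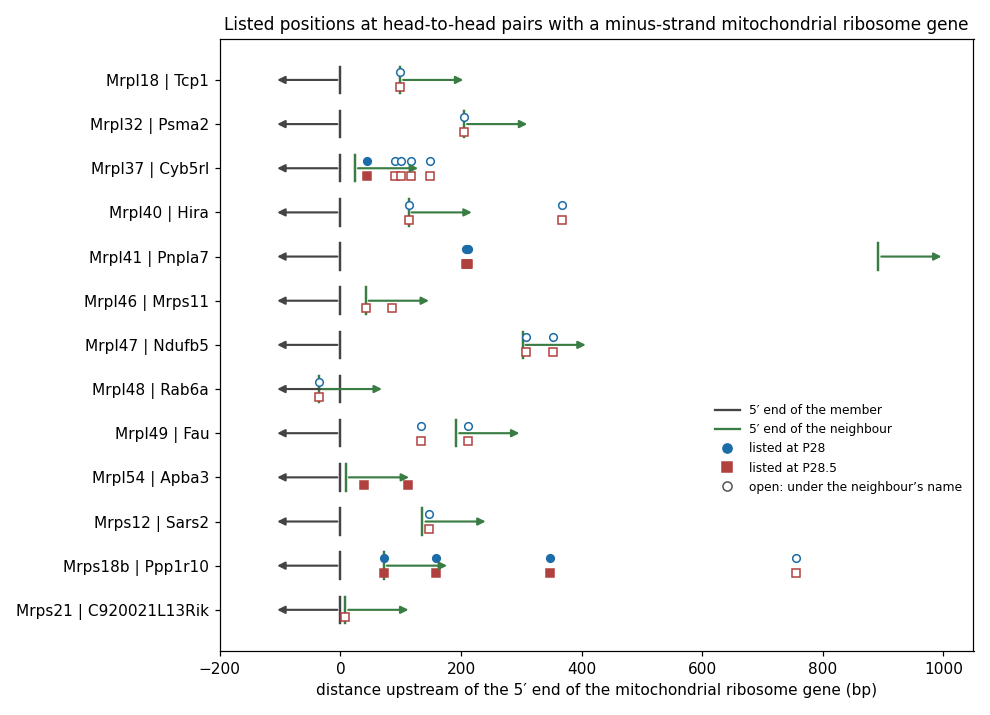
Listed positions at the 13 head-to-head pairs in which the mitochondrial ribosome gene is on the minus strand and a listed position lies within 2000 bp. The horizontal axis is the distance upstream of the nearest 5′ end of the mitochondrial ribosome gene (bp, drawn at 0 with a grey arrow), the nearest 5′ end of the neighbour is green, and circles (P28) and squares (P28.5) are listed positions, open where the row carries the neighbour's name. Mrpl46 and Mrps21 have positions at P28.5 alone, and so does Mrpl54 among the filled symbols.

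The plus-strand members with a head-to-head neighbour that were listed had rows under their own names, 8 of 20 at P28 and 7 of 20 at P28.5. Among them, Mrpl2 is paired with Klc4, a kinesin light chain gene, Mrpl51 with Ncapd2, a condensin subunit, Mrpl57 with Ska3, a kinetochore protein that binds spindle microtubules, and Mrps27 with Ptcd2, a pentatricopeptide repeat protein of mitochondrial RNA processing. Mrps7 is paired with Gga3, a trafficking adaptor, Mrpl14 with Tmem63b, Mrpl30 with Mitd1, a protein of late cytokinesis, Mrpl34 with Abhd8 and Mrpl10 with Lrrc46. Of the 20 pairs with a plus-strand member, 7 were listed under the member's name alone at each age, and 1 at P28 under both names (Mrps27 and Ptcd2, the latter with no row within 2000 bp of Mrps27). Another 2 were named at P28 for the neighbour alone (Mrpl46 and Helq, beside Mrps11 and Mrps18c), again with no row within 2000 bp. Of the 16 pairs with a minus-strand member, both names were listed for 2 at each age (Mrpl37 with Cyb5rl and Mrps18b with Ppp1r10), and the neighbour's name alone for 7 at P28 and 9 at P28.5. The remaining neighbours of members named in a list were Pnpla7, 892 bp from Mrpl41, and Apba3, 9 bp from Mrpl54.

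A single pair joins the subunits. Mrpl46 (large, minus strand) and Mrps11 (small, plus strand, a homologue of bacterial S11) start 42 bp apart on chr7. At P28.5 this promoter was listed, with rows at 78783131, the 5′ end of Mrps11, and at 78783174. At P28 no listed position lay within 2000 bp, and the nearest was the 3′ end of Mrpl46. The shared promoter thus stood in the later list alone, although the name of Mrpl46 stood in the earlier list alone.

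The DNA between the 5′ ends is shown for 10 of the listed pairs, those with 2 or more rows for either gene over both ages among pairs whose outermost annotated 5′ ends are 20 to 300 bases apart, because it is the stretch that both genes share. Each is written 5′ to 3′ on the strand of the mitochondrial ribosome gene (mm10), and capitals mark the letters of the motifs searched, namely GCGCATGC (NRF1), CCGGAAGT (ETS factors), AAGATGGC (YY1), GGGCGG (GC box), CCAAT (NF-Y) and TGACGTCA (CRE), on either strand. No motif contains another.
Mrps27 and Ptcd2, chr13:99344679-99344766: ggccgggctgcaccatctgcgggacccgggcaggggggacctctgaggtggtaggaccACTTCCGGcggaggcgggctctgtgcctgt
Mrps18b and Ppp1r10, chr17:35916441-35916511: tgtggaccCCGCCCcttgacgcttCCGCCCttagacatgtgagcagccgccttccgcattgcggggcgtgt
Mrpl49 and Fau, chr19:6057756-6057946: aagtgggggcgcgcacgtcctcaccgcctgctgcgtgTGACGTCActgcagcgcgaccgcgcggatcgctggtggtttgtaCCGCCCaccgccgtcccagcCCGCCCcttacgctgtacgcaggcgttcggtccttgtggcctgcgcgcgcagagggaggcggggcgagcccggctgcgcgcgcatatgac
Mrps12 and Sars2, chr7:28741822-28741956: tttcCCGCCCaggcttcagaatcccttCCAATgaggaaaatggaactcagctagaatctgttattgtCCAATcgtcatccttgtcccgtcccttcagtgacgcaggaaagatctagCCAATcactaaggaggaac
Mrpl40 and Hira, chr16:18876638-18876749: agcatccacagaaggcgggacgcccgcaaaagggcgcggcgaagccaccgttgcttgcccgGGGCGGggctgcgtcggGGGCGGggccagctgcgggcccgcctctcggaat
Mrpl30 and Mitd1, chr1:37890450-37890476: aaacctttcccggaaccaaagaaccgt
Mrpl46 and Mrps11, chr7:78783090-78783130: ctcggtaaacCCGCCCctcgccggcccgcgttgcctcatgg
Mrpl10 and Lrrc46, chr11:97041370-97041581: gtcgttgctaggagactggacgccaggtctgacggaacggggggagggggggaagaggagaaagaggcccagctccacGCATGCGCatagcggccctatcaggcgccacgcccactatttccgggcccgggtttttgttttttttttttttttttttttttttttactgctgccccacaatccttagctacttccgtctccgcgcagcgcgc
Mrpl32 and Psma2, chr13:14613038-14613241: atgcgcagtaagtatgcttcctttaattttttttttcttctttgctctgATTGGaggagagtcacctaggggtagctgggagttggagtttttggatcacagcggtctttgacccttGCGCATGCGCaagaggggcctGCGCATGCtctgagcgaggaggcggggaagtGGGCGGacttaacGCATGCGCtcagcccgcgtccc
Mrpl51 and Ncapd2, chr6:125192101-125192199: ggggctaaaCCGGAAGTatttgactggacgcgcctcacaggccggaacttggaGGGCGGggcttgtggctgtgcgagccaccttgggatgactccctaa

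These stretches are 27 to 212 bases long. The shortest, between Mrpl30 and Mitd1, held none of the motifs, and the stretch between Mrpl46 and Mrps11 held a GC box in its 41 bases. GC boxes also stood between Mrps18b and Ppp1r10, Mrpl49 and Fau, Mrps12 and Sars2, Mrpl40 and Hira, Mrpl32 and Psma2, and Mrpl51 and Ncapd2. The CRE letters occurred between Mrpl49 and Fau, and the NRF1 letters between Mrpl10 and Lrrc46 and between Mrpl32 and Psma2. The ETS letters occurred between Mrps27 and Ptcd2 and between Mrpl51 and Ncapd2, and CCAAT between Mrps12 and Sars2 and between Mrpl32 and Psma2. Their G and C content ran from 48.1% (Mrps12 and Mrpl30) to 75.0% (Mrpl40), and the stretch at Mrpl49 held 29 CpG sites in 191 bases.

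The promoters of the members were CpG-rich. CpG content, as observed over expected CpG in the 500 bp on each side of the 5′ end, had a median of 0.705 over the 78 members and 0.516 over protein-coding genes, and 58 of 78 members (74.4%) were in the upper 2 of 5 CpG quintiles, which hold 40.0% of all genes. Listed and unlisted members were much alike in this respect, with a median of 0.686 for the 25 genes named at either age and 0.728 for the 53 named at neither. In the RefSeq promoters of GRCm38.p6 (250 bases before to 50 after the gene's start), which covered 69 members and 17492 protein-coding genes, the YY1 letters occurred in 12 members (17.4%) and in 3.22% of all promoters. The ETS letters occurred in 11 (15.9%, 5.29% of all) and the NRF1 letters in 8 (11.6%, 3.61% of all). GC boxes (34 members, 49.3%), CCAAT (27, 39.1%) and the CRE (2, 2.90%) occurred about as often as in all promoters, which held them in 46.3%, 39.0% and 2.34%. Of the promoters of named and unnamed members, 5 of 24 and 7 of 45 held the YY1 letters, 3 of 24 and 8 of 45 the ETS letters, and 2 of 24 and 6 of 45 the NRF1 letters.

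The share of members listed was nearer to the background once promoter type was taken into account. When the shares of protein-coding genes listed by position were averaged over classes of CpG quintile in the proportions of the members, they came to 25.0% at P28 and 22.9% at P28.5, and over classes of head-to-head neighbour to 25.1% and 23.0%. With both properties together they came to 30.3% and 28.3%, beside the 33.3% of members listed at each age, and both lay inside the interval of the members. By name the values with both properties were 24.7% and 19.9%, beside 28.2% and 21.8%. With strand added to both properties the values were 31.1% and 28.4% by position, and 26.2% and 20.9% by name. The excess of listed members over all protein-coding genes was thus accompanied by more CpG-rich and more shared promoters and by more plus-strand genes. The part of each in it was not tested.

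Other genes of mitochondrial translation gave differing counts. Mitochondrial aminoacyl-tRNA synthetases and the glutamyl-tRNA amidotransferase had 10 of 20 genes named at P28 and 9 of 20 at P28.5, beside the 16.8% and 11.6% of protein-coding genes. Named at both ages were Aars2, Fars2, Mars2, Nars2, Sars2, Vars2, Wars2 and Yars2, the enzymes for alanine, phenylalanine, methionine, asparagine, serine, valine, tryptophan and tyrosine, with 17 rows at each age for Nars2. Factors of mitochondrial ribosome assembly and ribosomal RNA modification had 7 of 28 genes named at P28 and 1 of 28 at P28.5, the pseudouridine synthase Trub2, which was named at both ages. By position the same list had 8 of 28 at P28 (28.6%) and 5 of 28 at P28.5 (17.9%), beside 17.3% and 14.8% of protein-coding genes. Noa1, Tfb1m and Trub2 were counted by position at both ages, and Mettl15 and Mterf3 at P28.5 alone. Those named in the earlier list alone were Fastkd2, Malsu1, Mrm3, Ngrn, Rcc1l and Rpusd4, and the rows of Rcc1l lay 28665 bp or more from its 5′ ends. Translation factors, of which Mtrfr was not matched, had 3 of 15 named at P28 (Gfm2, Mtfmt and Tufm) and 1 of 15 at P28.5 (Gfm2, an elongation factor family protein that recycles ribosomes). Of 5 mitochondrial ribosomal proteins whose symbols lie outside the Mrpl and Mrps pattern, Dap3 was named at both ages, Chchd1 at P28.5 alone, and Aurkaip1, Gadd45gip1 and Ptcd3 at neither. Cytosolic ribosomal protein genes were named in 25 of 80 cases at P28 (31.2%, 22.2% to 42.1%) and in 30 of 80 at P28.5 (37.5%, 27.7% to 48.5%). By position these were 32 and 37 of 80, beside 26 of 78 mitochondrial ribosome genes at each age, and the difference between the sets was not tested. The sets differed in strand. Among plus-strand synthetase and amidotransferase genes 9 of 12 were named at P28 and 7 of 12 at P28.5. For plus-strand assembly and modification factors these were 5 of 8 and 0 of 8, and for translation factors 3 of 11 and 1 of 11. Plus-strand cytosolic ribosomal protein genes were named in 22 and 27 of 44 cases, beside 26.0% and 20.4% of plus-strand protein-coding genes. The part of strand in the differing counts was not tested.

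No listed position within 2000 bp and no row by name was found at either age for 45 members, 27 of the large and 18 of the small subunit. Of the large subunit these were Mrpl1, Mrpl3, Mrpl4, Mrpl9, Mrpl11, Mrpl12, Mrpl13, Mrpl15, Mrpl17, Mrpl19, Mrpl21, Mrpl22, Mrpl23, Mrpl24, Mrpl27, Mrpl28, Mrpl33, Mrpl35, Mrpl36, Mrpl38, Mrpl39, Mrpl42, Mrpl43, Mrpl44, Mrpl50, Mrpl53 and Mrpl55. Of the small subunit they were Mrps2, Mrps5, Mrps10, Mrps16, Mrps17, Mrps18c, Mrps22, Mrps23, Mrps24, Mrps25, Mrps26, Mrps28, Mrps30, Mrps31, Mrps33, Mrps34, Mrps35 and Mrps36. The distance from the 5′ ends of members without a row or position at an age to the nearest listed TSS had a median of 91734 bp at P28 (lowest 2386 bp, at Mrps34) and 119654 bp at P28.5 (lowest 7306 bp, at Mrpl35). Several of them also share a promoter, such as Mrpl43 with Twnk, the mitochondrial DNA helicase, and Mrpl36 with Ndufs6 of complex I, and neither gene of these pairs had a row at either age. Of the trio of Mrps18 paralogs, Mrps18b had listed TSSs at its promoter at both ages, and Mrps18a and Mrps18c at neither. Since 18 of the 45 are minus-strand genes, whose own 5′ ends the lists largely leave out, absence from the lists does not show that ARID2 was absent from these promoters.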

How the data were processed

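Per the study's methods, the authors trimmed the CUT&RUN reads, aligned them to mm10 with Bowtie2 and processed them with SAMtools. With deepTools they made coverage without blocklisted regions and duplicates, scaled by effective library size from csaw factors, and took the log2 ratio to the control without primary antibody. Replicates were averaged with WiggleTools, and TSSs were divided by k-means in deepTools. The deposited lists hold positions and symbols of the enriched cluster and no other value. The RefSeq release they used is not given in the sources used here.

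RefSeq transcripts of GRCm38.p6 (equal to mm10) gave the 5′ and 3′ ends, and a symbol counted for a gene if it was that gene's symbol or a synonym of no other gene. No test was run. The windows were 2000 bp (500 bp as an alternative) and 1000 bp for neighbours. The genes named are all members by their listing, the neighbours sharing a promoter with a listed member, and genes of 4 related lists named at both ages. Members, lists and rules were chosen with earlier results of these data known. Counting steps were tested on simulated lists. The scripts ran in Python 3.11.15. Intervals came from scipy 1.17.1 and figures from matplotlib 3.10.9.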

Additional observations from a re-analysis of the deposited data

How the results depend on the processing

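No paired analysis was possible because the lists analysed here hold 1 set of TSSs for each age and no single replicates, so no replicate was left out either. Signal tracks of single replicates were not analysed here. Of 50 alternatives, 42 stayed within the main value's 95% interval (or, for a count, within 1.5 times). Counting minus-strand genes alone gave 16.1% of members at P28 and 12.9% at P28.5, and 9.09% of small subunit genes at both ages. Counting any listed position within 2000 bp gave 33.3% of members and 34.7% of large subunit genes at P28.5, where the share by name was 21.8% and 20.4%. The members counted by position and not by name at P28.5 were the 9 with rows under another name, 7 of them of the large subunit. Why minus-strand genes gave lower shares was not tested. Taking all annotated genes as background gave 8.23% at P28 and 5.45% at P28.5. Leaving out Mrps36 gave 28.6% of members at P28 and 22.1% at P28.5. Chosen after seeing the data was a row that carries the gene's own name within 2000 bp (24.4% and 21.8% of members, 13 or 16.7% at both ages). By that rule protein-coding genes stood at 13.7% at P28, 11.4% at P28.5 and 8.22% at both ages. Also chosen after seeing the data was moving Mrps18a and Mrps30, whose proteins lie in the large subunit of the mammalian ribosome, to that subunit. This gave 29.4% and 19.6% of large and 25.9% and 25.9% of small subunit genes. The lists give no signal, so how close a gene lay to the border of the cluster is unknown.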
